A study of Drosophila melanogaster with 15 samples.

Results

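Cytosolic ribosomal proteins are the protein parts of the ribosome outside mitochondria. They were described here in whole adult males that had met ethanol vapor 0, 1 or 2 times. Members were all probe sets whose annotated gene symbol starts with RpL (large subunit) or RpS (small subunit), with the stalk proteins RpLP0 to RpLP2 and the relatives whose symbol ends in -like. This gave 47 probe sets in 41 genes, of 18769 probe sets in all, and all 47 passed the filter on low Signal. The annotation of RefSeq release 6 lists 92 such genes. For 51 of them no probe set carried the symbol, and they were not analysed here.

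The ribosome joins messenger RNA and transfer RNAs on its small subunit and makes the peptide bond on its large subunit. Its proteins are needed in matched amounts, their transcripts are among the most abundant in a fly, and they are usually controlled together. Their RNA therefore often serves as a reference, RpL32 (long known as rp49) being the most used in flies. The fly genome also holds second copies of several members, such as RpS5b, RpS10a, RpS19b and RpL22-like, which are known for transcripts enriched in the germline. RpL24-like and RpLP0-like belong with the yeast factors Rlp24 and Mrt4, which hold the place of a ribosomal protein while the large subunit is assembled.

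The samples were 15 pools of 30 males of the isogenic strain Canton-S B, 3 to 5 days old, 1 Affymetrix Drosophila GeneChip 2.0 array a pool. Control flies (5 arrays) met no ethanol. Flies of the 1st exposure (5 arrays) were frozen directly after they had fallen through an inebriometer, a column filled with ethanol vapor in which flies lose their footing. Flies of the 2nd exposure (5 arrays) had passed the column, recovered for 2 h and passed it again. All groups were wild type, and the exposed pools held only flies that left the column around the peak of elution. Whole bodies were used, so fewer cells of a type and less RNA per cell cannot be told apart. Control flies were frozen without passing the column, and 2nd exposure flies were frozen later than control, after the 2 h of recovery. Ethanol, the passage through the column and, for the 2nd exposure, the later hour cannot be told apart.

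One array went against the description of the pools as males. In the 2nd exposure array 5, the yolk protein transcripts Yp1, Yp2 and Yp3, which females make, had a Signal of 2521, 1670 and 1661, and the vitelline membrane transcript Vm26Aa had 485. On the other 14 arrays none of the 4 passed 147. The remaining 6 egg-shell transcripts of the list of 10 stayed at or under 16.4 on that array. The main 2nd exposure results are therefore also given without it. Control probe sets for the 3' and the 5' end of the actin transcript also moved with exposure. Their Signal ratio was 2.00 to 2.71 in control arrays, 1.70 to 2.11 at the 1st exposure and 1.36 to 1.82 at the 2nd. The mean ratio also fell for the 2 other transcripts read in this way. In control, 1st and 2nd exposure arrays it was 3.93, 3.32 and 3.16 for eIF4A, and 2.75, 2.57 and 2.36 for Gapdh.

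Transcripts of most measured members stayed close to their control level after either exposure. The Signal of RpL24-like and of 1 dim RpL3 probe set rose after both. For that RpL3 probe set the 1st exposure call was at the edge (limma adjusted p = 0.0438). The bright RpL3 probe set had log2 fold changes of -0.01 and -0.03 and was not called. Over the 3 treatments, 2 of 47 member probe sets differed (limma, moderated F, Benjamini-Hochberg adjusted p under 0.05), where 3.61% of all 13809 tested probe sets did. In the 1st exposure arrays the same 2 were higher than in control and 0 lower, against a background of 0.362% (0.174% higher and 0.188% lower). In the 2nd exposure arrays again these 2 were higher and 0 lower, against a background of 3.63% (2.42% higher and 1.21% lower). In each case this was 4.26% of the members, close to the background over the treatments and at the 2nd exposure. Between the exposures limma called 0 members (background 1.76%), with 6 at an unadjusted p under 0.05 (background 15.6%). The arrays of 2 members lay wholly outside the control range at the 1st exposure (background 2.8%) and those of 3 at the 2nd (background 5.45%), 2 above it (3.4%) and 1 under it (2.05%). Between the exposures all members overlapped (background of separate ones 4.87%). At an unadjusted p under 0.05, 2 members passed at the 1st exposure (background 10.5%) and 6 at the 2nd (background 16.4%).

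The median log2 fold change over the 47 probe sets was -0.01 at the 1st exposure and -0.02 at the 2nd, beside -0.02 and -0.00019 over all probe sets tested. Between the 2nd and the 1st exposure it was -0.02, beside 0.03 over all. These medians were smaller than the spread of the family's own level between arrays of a treatment (pooled SD 0.0685 on the log2 scale). The sign of the 1st exposure median also followed the scaling: it was 0.02 after quantile normalization and 0.05 with equal array medians. Without array 5 of the 2nd exposure, which held yolk transcripts, the median of the ribosomal protein probe sets at the 2nd exposure was -0.04. The same 2 members were called there, where 235 of all 13809 tested probe sets were called higher and 135 lower. Leaving out any 1 array brought no other member past the threshold.

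**Figure D1:**
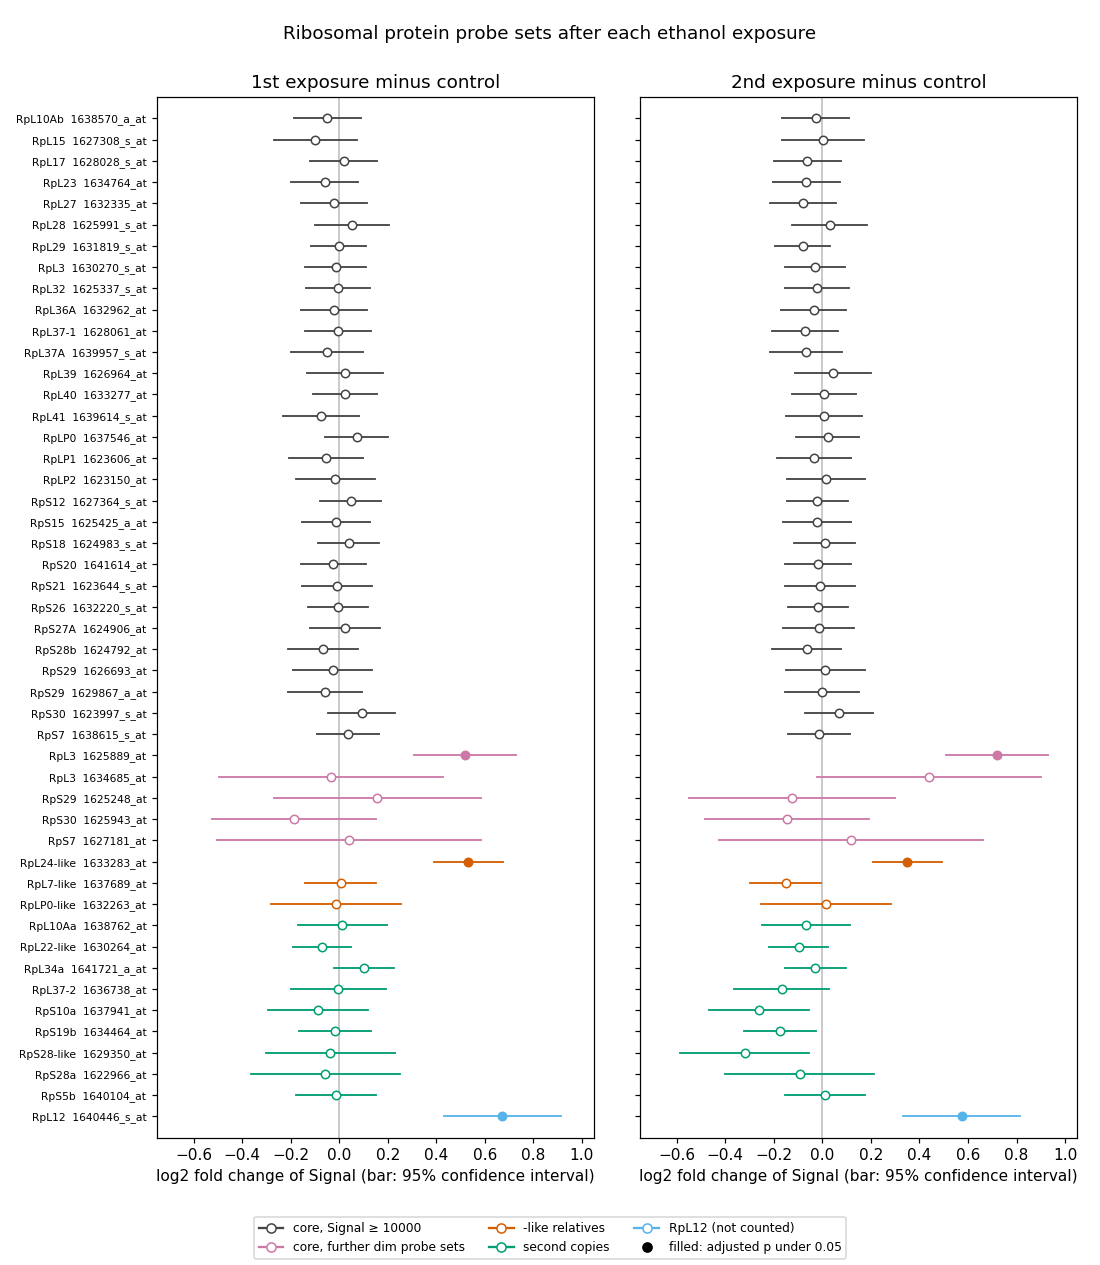
Log2 fold change of Signal (x axis) of the 47 member probe sets and of RpL12, at the 1st exposure (left) and the 2nd exposure (right), each relative to control, with the 95% confidence interval from limma as a bar and filled points for an adjusted p under 0.05. The 30 bright core probe sets lie between -0.10 and 0.09, while RpL24-like, 1 dim RpL3 probe set and RpL12 lie to the right in both panels.

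The core of the measured members was formed by 30 probe sets whose mean Signal reached 10000, in 29 genes. None of the 30 was called after either exposure (background 0.362% and 3.63%). Their smallest adjusted p was 0.681 at the 1st exposure and 0.491 at the 2nd. Their log2 fold changes ran from -0.10 to 0.09 at the 1st exposure and from -0.08 to 0.07 at the 2nd. At the 1st exposure the 95% confidence interval lay inside a 1.2-fold change in both directions for 29 of the 30, all but RpL15. At the 2nd exposure it did so for all 30. Their mean Signal ran from 10806 to 22623, near the top of the range, the highest Signal on an array being 23281 to 33149. Whether Signal still follows the amount of RNA at this level was not tested. Over the 253 other probe sets of the same brightness, limma called 0 at the 1st exposure (background 0.362%). It called 5 higher and 1 lower at the 2nd (background 2.42% and 1.21%).

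RpS30, a small subunit protein made as a fusion with a ubiquitin-like protein, had the highest value of the 30 after both exposures, 0.09 ± 0.06 and 0.07 ± 0.06 (log2 fold change ± SE, adjusted p = 0.681 and 0.662). Its Signal was 11245, 12219, 12350, 12552 and 13414 in control arrays, 13688, 12672, 12770, 12558 and 14144 at the 1st exposure, and 12447, 11619, 13300, 13668 and 13753 at the 2nd. The arrays of the 3 treatments overlapped. RpL15, of the large subunit, had the lowest value at the 1st exposure, -0.10 ± 0.08 (adjusted p = 0.738). RpL41, the smallest protein of the ribosome, RpS28b, RpL23 and RpS29 (1629867_a_at) followed, at -0.08, -0.07, -0.06 and -0.06.

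At the 2nd exposure the lowest of the 30 were RpL27, RpL29, RpL37-1 and RpL37A of the large subunit, at -0.08, -0.08, -0.07 and -0.07, and none passed the test. RpL32, the reference transcript, had a log2 fold change of -0.0040 at the 1st exposure and -0.02 at the 2nd. Its Signal was 15734, 16301, 17030, 16815 and 18438 in control arrays, 17372, 16159, 16599, 16356 and 17526 at the 1st exposure, and 15852, 14897, 17482, 17100 and 17667 at the 2nd. The lowest and the highest of its control arrays enclosed all exposed arrays but array 2 of the 2nd exposure, which was the lowest of the 15.

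The stalk of the large subunit, which calls in the elongation factors, is made of RpLP0 with RpLP1 and RpLP2. RpLP0 had log2 fold changes of 0.07 at the 1st exposure and 0.02 at the 2nd, RpLP1 of -0.05 and -0.04, and RpLP2 of -0.02 and 0.02, with none called. RpS27A and RpL40, each made as a fusion with ubiquitin, also stayed uncalled: RpS27A had 0.02 at the 1st exposure and -0.02 at the 2nd, and RpL40 had 0.02 and 0.01. RpS12, known in flies for its part in competition between cells, had 0.05 at the 1st exposure and -0.02 at the 2nd.

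The bright members moved together from array to array. On control array 5 all 30 had their highest Signal of the 5 control arrays, and on control array 1 the lowest for 24 of 30. At the 2nd exposure, array 2 held the lowest value for 26 of 30. The median deviation of the 30 from their mean over 15 arrays was -0.09, -0.06, 0.03, 0.03 and 0.14 on the log2 scale in control arrays, 0.06, -0.05, -0.03, -0.03 and 0.05 at the 1st exposure, and -0.06, -0.17, 0.05, 0.07 and 0.05 at the 2nd. The ranges of the 3 treatments overlapped. The 253 other probe sets of the same brightness had their highest value, 0.13, and their lowest, -0.12, on the same arrays, control array 5 and array 2 of the 2nd exposure. The summed Signal of the 47 probe sets made up 3.35% to 3.73% of that of all probe sets in control arrays, 3.44% to 3.63% at the 1st exposure and 3.23% to 3.61% at the 2nd.

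**Figure D2:**
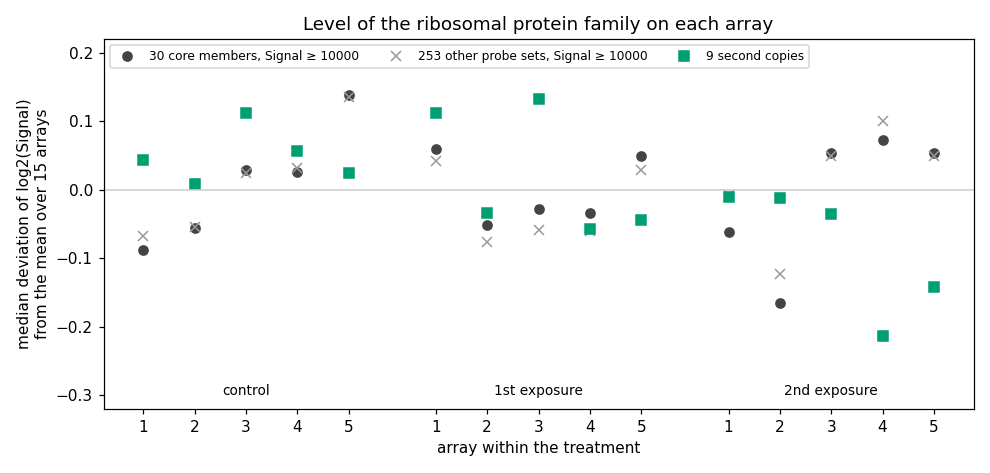
Median deviation of log2(Signal) from the mean over 15 arrays (y axis) on each array (x axis, arrays 1 to 5 of each treatment), for 30 bright core members, 253 other bright probe sets and 9 second copies. The core members follow the other bright probe sets, highest at 0.14 on control array 5 and lowest at -0.17 on array 2 of the 2nd exposure, whereas the second copies are lowest on arrays 4 and 5 of the 2nd exposure.

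RpL24-like (1633283_at), the relative of the assembly factor Rlp24 of yeast, was the member with the clearest rise at the 1st exposure. Its Signal was 1498, 1518, 1496, 1433 and 1508 in control arrays, 1957, 2320, 2102, 2280 and 2132 at the 1st exposure, and 1899, 1863, 1694, 1908 and 2158 at the 2nd. All exposed arrays lay above all control arrays, and the 1st and 2nd exposure arrays overlapped. The log2 fold change was 0.53 ± 0.07 at the 1st exposure (SE, 1.45-fold, limma adjusted p = 0.00383) and 0.35 ± 0.07 at the 2nd (1.27-fold, adjusted p = 0.00933). Between the 2nd and the 1st exposure it was -0.18 ± 0.07 (adjusted p = 0.199), which did not pass the test, although it did with equal array medians (-0.28, adjusted p = 0.0435).

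Leaving out any 1 array kept RpL24-like past the threshold after both exposures, with an adjusted p of 0.00283 to 0.0203 at the 1st and of 0.00586 to 0.0243 at the 2nd. Without array 5 of the 2nd exposure, the array with yolk transcripts, the 2nd exposure value was 0.30 (adjusted p = 0.0219). Without arrays 4 and 5 of the 2nd exposure together it was 0.29 and no longer called (adjusted p = 0.0576). Neither of the other 2 relatives of this kind was called. RpLP0-like had log2 fold changes of -0.01 and 0.01 at the 1st and the 2nd exposure, and RpL7-like had 0.01 and -0.15 (adjusted p = 0.990 and 0.285).

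RpL3, a protein near the catalytic centre of the large subunit, was read by 3 probe sets that did not move alike. The dim probe set 1625889_at had a Signal of 256, 221, 189, 224 and 251 in control arrays, 323, 343, 284, 299 and 387 at the 1st exposure, and 371, 345, 384, 360 and 414 at the 2nd. All exposed arrays lay above all control arrays, and the exposures overlapped. Its log2 fold change was 0.52 ± 0.10 at the 1st exposure (1.43-fold, limma adjusted p = 0.0438) and 0.72 ± 0.10 at the 2nd (1.65-fold, adjusted p = 0.00119). Between the 2nd and the 1st exposure it was 0.20 ± 0.10 (adjusted p = 0.338).

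The bright RpL3 probe set 1630270_s_at had a Signal of 14510, 15014, 16154, 15569 and 17006 in control arrays, 16419, 14830, 15512, 14784 and 15858 at the 1st exposure, and 14708, 14312, 15800, 16203 and 15611 at the 2nd. The treatments overlapped, and its log2 fold changes were -0.01 (95% confidence interval -0.14 to 0.11) and -0.03 (-0.15 to 0.10). The interval of the dim probe set ran from 0.31 to 0.73 at the 1st exposure and from 0.51 to 0.93 at the 2nd, apart from that of the bright one in both. The remaining RpL3 probe set, 1634685_at, had a Signal of 26.1 to 56.9 in control arrays, 34.4 to 52.2 at the 1st exposure and 35.9 to 70.3 at the 2nd, with log2 fold changes of -0.03 and 0.44 (adjusted p = 0.984 and 0.331). Which stretch of the gene each probe set reads was not analysed here.

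The 2nd exposure call of the dim RpL3 probe set held whichever single array was left out (adjusted p 0.000896 to 0.00449), also without the array with yolk transcripts (0.68, adjusted p = 0.00449). Its 1st exposure call was at the edge: it was lost on leaving out 14 of the 15 arrays 1 at a time, with an adjusted p of 0.0398 to 0.111 and a log2 fold change of 0.45 to 0.57. The ratios of the 3' to the 5' end of actin, eIF4A and Gapdh, given above, moved in the same groups. Their part in the RpL3 and RpL24-like results was not tested.

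**Figure D3:**
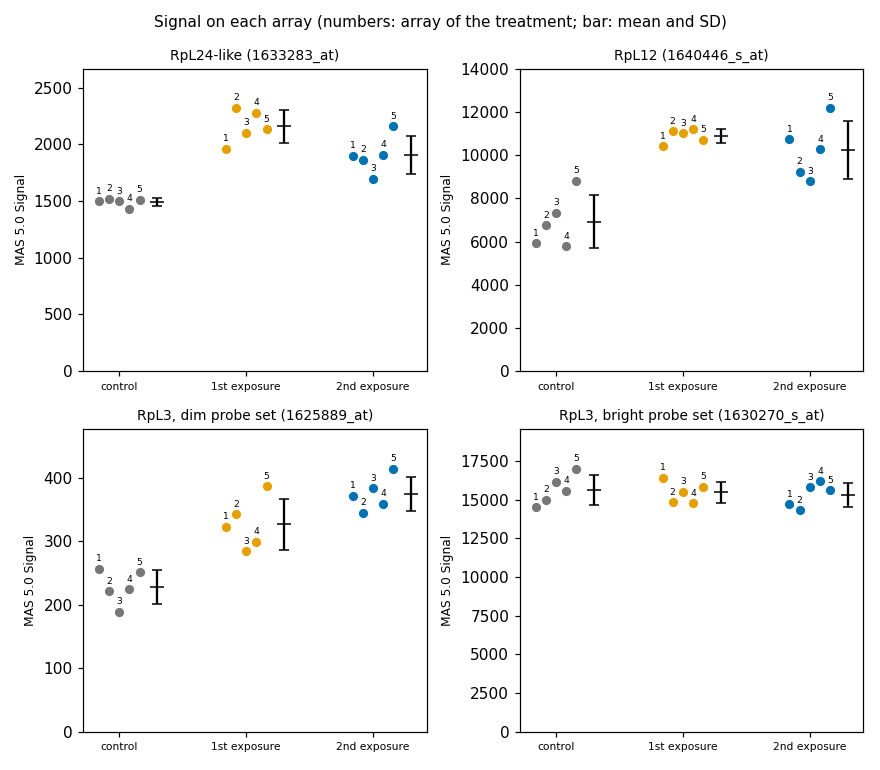
MAS 5.0 Signal (y axis, from 0) on each array of control, 1st and 2nd exposure (x axis, points numbered by array), with the mean and SD beside them. RpL24-like and the dim RpL3 probe set lie above all 5 control arrays on all 10 exposed arrays, RpL12 does so at the 1st exposure, and the bright RpL3 probe set overlaps between the treatments.

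One further probe set, 1640446_s_at, had no symbol in the array annotation used here, and its name, RpL12, comes from the study's own list of changed probe sets. It was picked on these samples, so it is not independent evidence and is not counted among the 47. RpL12 forms the base of the stalk with RpLP0. The Signal was 5914, 6753, 7329, 5785 and 8806 in control arrays, 10416, 11105, 11019, 11202 and 10701 at the 1st exposure, and 10737, 9241, 8794, 10269 and 12188 at the 2nd. The 1st exposure arrays all lay above control, while 1 array of the 2nd exposure, at 8794, fell under the highest control array. The log2 fold change was 0.67 ± 0.11 (limma adjusted p = 0.0199) at the 1st exposure and 0.57 ± 0.11 (adjusted p = 0.0113) at the 2nd.

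The 2nd exposure call of RpL12 held without any single array (adjusted p 0.00258 to 0.0315), and was lost without arrays 4 and 5 of the 2nd exposure together (0.48, adjusted p = 0.0824). The 1st exposure call was lost on leaving out any of 7 arrays, control 1, 2 or 4 or 1st exposure 1, 2, 3 or 4, where its adjusted p reached 0.066. Both calls of RpL12 were lost with only the 2 treatments compared in the fit (adjusted p = 0.061 at the 1st exposure and 0.055 at the 2nd). RpL39, the next gene to RpL12 in RefSeq release 6, had log2 fold changes of 0.02 and 0.04 at the 1st and the 2nd exposure, with none called. RpLP0, its partner in the stalk base, had 0.07 and 0.02.

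Of the second copies 9 were measured, and none was called in any comparison. The background was 0.362% at the 1st exposure, 3.63% at the 2nd and 1.76% between them. At the 1st exposure 2 were higher and 7 lower than in control, with a median log2 fold change of -0.02. Of all probe sets tested, 5971 were higher and 7838 lower there, and with equal array medians 7 of the second copies were higher and 2 lower. At the 2nd exposure 1 was higher and 8 lower, with a median of -0.10 and a smallest adjusted p of 0.17. Of all probe sets tested, 6895 were higher and 6914 lower at the 2nd exposure. Without array 5 of the 2nd exposure all 9 second copies were lower there, with a median of -0.12 and none called. Of all probe sets tested, 7064 were then higher and 6745 lower. The second copies' median was -0.13 for the 2nd exposure after quantile normalization and -0.14 with equal array medians. For the 1st it was -0.01 and 0.05.

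RpS10a, a copy of the small subunit protein RpS10, was the only member whose 2nd exposure arrays all lay under control. That is 2.13% of the members, close to the 2.05% of all probe sets tested. Its Signal was 310, 314, 383, 308 and 319 in control arrays, 354, 290, 349, 261 and 291 at the 1st exposure, and 265, 294, 291, 239 and 272 at the 2nd. The highest 2nd exposure array, 294, lay just under the lowest control array, 308. The log2 fold change was -0.26 ± 0.10 (adjusted p = 0.17) at the 2nd exposure, the same -0.26 without array 5 (adjusted p = 0.265), and -0.09 ± 0.10 (adjusted p = 0.836) after the 1st.

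RpS28-like, a copy of RpS28, had the lowest value of all members at the 2nd exposure, and it rested on a pair of arrays. Its Signal was 660, 581, 605, 587 and 591 in control arrays, 601, 560, 627, 587 and 572 at the 1st exposure, and 528, 581, 606, 379 and 377 at the 2nd. Arrays 4 and 5 of the 2nd exposure stood far under the other 13. The log2 fold change of -0.32 ± 0.12 (adjusted p = 0.20) became -0.08 (adjusted p = 0.655) without this pair and -0.23 (adjusted p = 0.39) without array 5 alone. RpS28a, another form, had -0.06 and -0.09, and the bright RpS28b had -0.07 and -0.07, at the 1st and the 2nd exposure.

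The same arrays were low for other second copies. RpL10Aa, a copy of RpL10A, had a Signal of 2204, 2005, 1953, 2120 and 2046 in control arrays, 2320, 1991, 2211, 1958 and 1960 at the 1st exposure, and 2028, 2286, 2139, 1697 and 1760 at the 2nd. RpL37-2, a copy of RpL37, had 576, 569, 668, 590 and 525 in control arrays, 614, 559, 680, 527 and 544 at the 1st exposure, and 573, 557, 545, 448 and 488 at the 2nd. Arrays 4 and 5 of the 2nd exposure were the lowest of all 15 for 4 of the 9 second copies (RpL10Aa, RpS19b, RpL37-2 and RpS28-like), and the lowest of their treatment for 5 of 9, with RpL22-like. Arrays 1 and 3 were the highest of the 1st exposure for 7 of 9, all but RpL34a and RpS28a. At the 2nd exposure RpL10Aa had a log2 fold change of -0.07, and -0.03 without array 5 (adjusted p = 0.944), and RpL37-2 had -0.17, and -0.14 without array 5 (adjusted p = 0.575). These array pairs were singled out after their values were seen.

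RpS19b, which with RpS5b and RpL22-like is known for its germline transcript, had -0.02 ± 0.07 at the 1st exposure and -0.17 ± 0.07 (adjusted p = 0.214) at the 2nd, or -0.16 without array 5 (adjusted p = 0.366). Its Signal was 882, 786, 841, 884 and 819 in control arrays, 875, 770, 932, 781 and 811 at the 1st exposure, and 800, 815, 716, 695 and 713 at the 2nd, so that 2 arrays of the 2nd exposure lay within the control range. RpL22-like had -0.07 ± 0.06 and -0.10 ± 0.06, its Signal running from 755 to 829 in control arrays, from 714 to 827 at the 1st exposure and from 701 to 772 at the 2nd. RpL34a, a copy of the large subunit protein RpL34, had 0.10 ± 0.06 at the 1st exposure (adjusted p = 0.574) and -0.03 ± 0.06 at the 2nd. Its Signal ran from 2978 to 3292 in control arrays, from 3105 to 3582 at the 1st exposure and from 2842 to 3326 at the 2nd.

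RpS5b, a second copy used in ovary and testis, had a Signal of 882, 868, 870, 879 and 824 in control arrays, 901, 773, 946, 868 and 806 at the 1st exposure, and 925, 822, 842, 769 and 1012 at the 2nd. Its highest value of the 15 was on array 5 of the 2nd exposure, the array with yolk transcripts. Its log2 fold changes were -0.01 at the 1st exposure and 0.01 at the 2nd, and without that array the 2nd exposure value was -0.05 (adjusted p = 0.859). The bright partners RpL10Ab and RpL37-1 had -0.05 and -0.03, and -0.01 and -0.07, at the 1st and the 2nd exposure. The ordinary copies of RpS10, RpS19, RpL22, RpL24 and RpL34 had no probe set with their symbol and were not analysed here.

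On the exposed arrays, the testis genes were highest and lowest where most of the second copies were. Over all tested probe sets, the first component of the residual spread (13.5% of variance) split the exposed arrays the same way. It set arrays 1 and 3 of the 1st exposure and 1 to 3 of the 2nd apart from the rest. RpL34a went the other way, highest of the 2nd exposure on arrays 4 and 5 (3326 and 3251). In control arrays the testis sum was highest on array 5, the second copies' median on array 3. The summed Signal of the 17 testis genes of the marker list was 97014, 95362, 101800, 101550 and 107910 in control arrays, 113380, 88174, 112520, 91106 and 97032 at the 1st exposure, and 102420, 98566, 103890, 89876 and 87983 at the 2nd. Arrays 1 and 3 were the highest of the 1st exposure, and arrays 4 and 5 the lowest of the 2nd. None of the 17 was called after either exposure, where 0.362% and 3.63% of all tested probe sets were. Their median log2 fold change was 0.0023 at the 1st exposure and -0.09 at the 2nd. The 6 flight muscle genes on the array summed to 36581 to 53157 in control arrays, 26001 to 52276 at the 1st exposure, and 34475 to 82362 at the 2nd, with arrays 4 and 5 of the 2nd exposure the highest of the 15 at 82362 and 65526. The 10 accessory gland genes summed to 110370 to 159930, 111940 to 131990 and 119130 to 133500 in control, 1st and 2nd exposure arrays. The 5 gut genes tested summed to 78667 to 86052 in control arrays, 65995 to 80284 at the 1st exposure and 64976 to 88147 at the 2nd. Of these, 1 was called, the trypsin gene lambdaTry, lower at the 2nd exposure (-0.45 ± 0.09, adjusted p = 0.0132), also without array 5 (-0.49, adjusted p = 0.0148). The part of testis, muscle and gut RNA in the second copies' values was not tested.

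**Figure D4:**
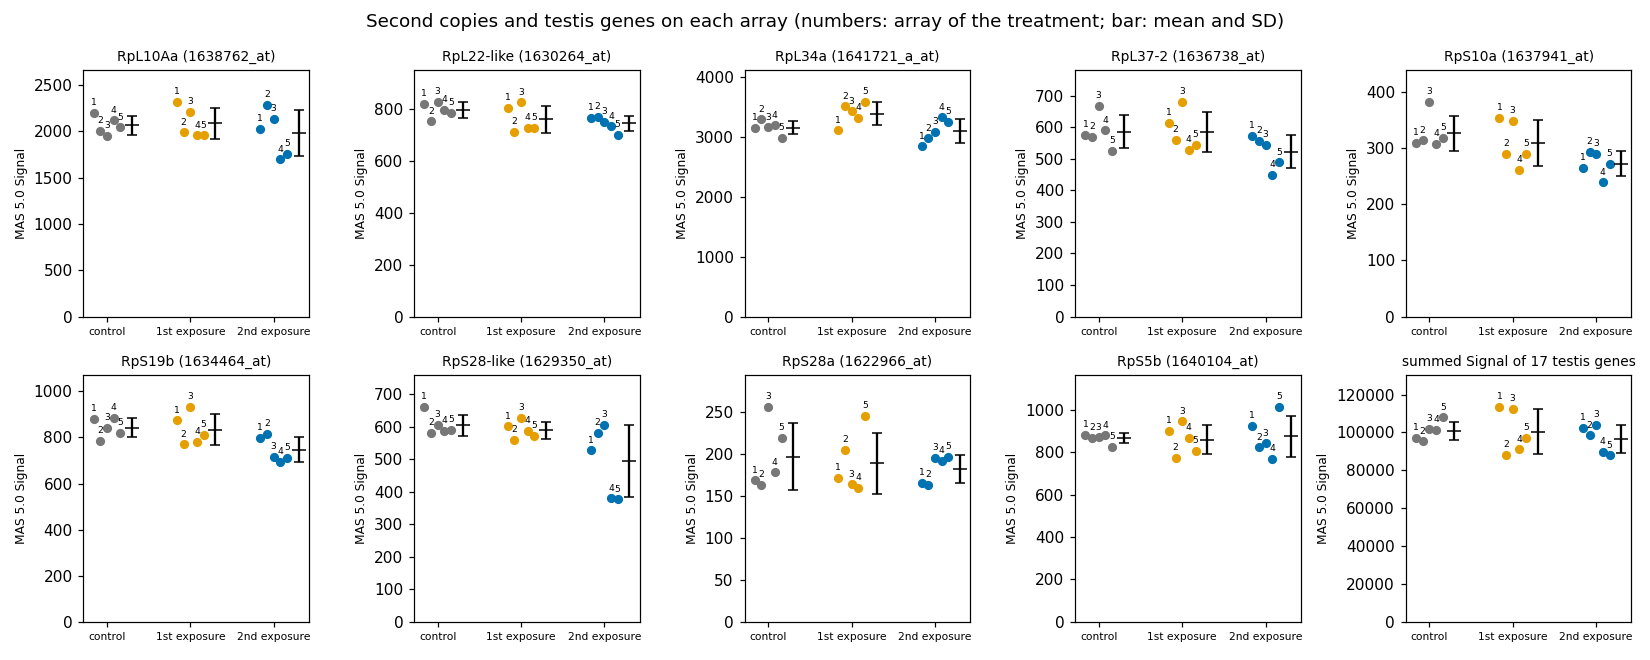
MAS 5.0 Signal (y axes, from 0) of the 9 second copies and the summed Signal of 17 testis genes on each array of control, 1st and 2nd exposure (x axes, points numbered by array), with the mean and SD beside them. Arrays 4 and 5 of the 2nd exposure are the lowest of their treatment for 5 of the 9 second copies and for the testis genes.

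The genes with more than 1 probe set beside RpL3 were RpS29, RpS30 and RpS7. The bright RpS29 probe sets had log2 fold changes of -0.06 and -0.03 at the 1st exposure and of -0.0018 and 0.01 at the 2nd, and the dim one, with a Signal of 66.5 to 169.5, had 0.16 and -0.12. The dim RpS30 probe set had -0.18 and -0.15 beside 0.09 and 0.07 for the bright one, and the dim RpS7 probe set had 0.04 and 0.12 beside 0.04 and -0.01. None of these was called. Replicate spread was wider in the 5 dim probe sets, with a median coefficient of variation of 21.5%, 16.8% and 23.3% in control, 1st and 2nd exposure arrays, than in the 30 bright ones, with 6.3%, 4.07% and 7.21%.

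Other genes of translation were set beside the family. Of 44 tested probe sets of initiation factors, 1 was called at the 2nd exposure, eIF2D, an initiation factor that delivers transfer RNA, at 0.24 ± 0.06 (adjusted p = 0.0499), and 0 after the 1st. Without array 5 of the 2nd exposure eIF2D had 0.25 and was no longer called (adjusted p = 0.0982). Of 71 probe sets of mitochondrial ribosomal proteins, 28 of ribosome assembly and nucleolar genes, 6 of elongation and release factors and 6 of growth regulators of ribosome synthesis, none was called after either exposure. Over all tested probe sets, 0.362% were called at the 1st exposure and 3.63% at the 2nd. The median log2 fold change at the 2nd exposure was -0.04 for initiation factors, -0.08 for mitochondrial ribosomal proteins, 0.09 for assembly genes, 0.01 for elongation and release factors and -0.08 for growth regulators. Over all probe sets tested it was -0.00019.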

How the data were processed

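Probe-set intensity was measured on 15 arrays. The authors computed the deposited values, the linear Signal intensity of Microarray Suite 5.0 (MAS5 in the submitters' processing notes), from perfect-match and mismatch probes and scaled each array; the mean after trimming 2% at both ends was 500 on every array. The number of arrays limits the precision. Here 183 control probe sets were left out, and the 13809 of 18769 others with a mean Signal of at least 20 entered limma 3.58.1 (R 4.3.3) as log2 of the deposited Signal (1 mean a treatment, empirical Bayes, Benjamini-Hochberg at 0.05 over all). The methods exclude Absent probe sets; a Signal filter took that place, since detection calls were not used here. Symbols came from the platform annotation, with 13646 probe sets of 1 symbol, 402 of several and 4721 of none, and 13543 of the first were found in RefSeq. The 3 ribosomal protein probe sets shared with another gene were left out. Members, lists and tests were chosen with earlier results of these data known. Named are called members, the 5 highest and 5 lowest after each exposure, second copies and genes with several probe sets; of other lists, called genes. Alternatives changed scaling, filter, model, probe-set choice and arrays. Drawing used Python 3.11.15 and matplotlib 3.10.9. Scripts were tested on simulated data. Signal of different probe sets was used to sort them as bright or dim and in sums. It was not read as the abundance of their transcripts.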

Additional observations from a re-analysis of the deposited data

Results flagged for a closer look

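Over 150 groups of 5 arrays (48 probe sets with RpL12, and 2 family measures, in 3 treatments), 5 had 1 array that stood apart from the other 4 by more than 0.71 of the group's range, a distance that chance gives in about 1 of 20 groups. RpL24-like was low on control array 4, with a Signal of 1433.1 against 1496 to 1518 on the other control arrays. RpL7-like was low on array 5 of the 1st exposure, at 1117.9 against 1226 to 1254. RpL41 was high on control array 5, at 26860.2 against 21001 to 22636, the array on which all bright members were highest. RpS5b was low on the same array, at 824.3 against 868 to 882. RpS10a was high on control array 3, at 382.9 against 308 to 319.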

How the results depend on the processing

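Of the 2 members called at the 1st exposure, 1 remained with linear Signal, with no Signal filter, with only the 2 treatments compared in the fit, with the mean or the brightest probe set of a gene, and without arrays 4 and 5 of the 2nd exposure together; leaving out 1 array gave 1 to 2. The lost call was that of the dim RpL3 probe set, or that probe set no longer stood for itself. With the mean or the brightest probe set of a gene, 1 gene differed over the treatments. At the 2nd exposure 1 was called with the brightest probe set and without arrays 4 and 5 of the 2nd exposure. With the first residual component as a covariate 4 were called, where RpS28-like (-0.32, adjusted p = 0.049) and RpS19b (-0.17, adjusted p = 0.0302) joined. That component was computed from the residuals of these same arrays. The fold changes stayed as in the main fit and only the error estimate changed. The adjusted p-values of this fit can therefore be too small, and the added calls are no support. Between the exposures, 1 was called with equal array medians, and the family median was then -0.12; that scaling moved the median of all probe sets there from 0.03 to -0.07. The share of all tested probe sets called under these settings, and under those below, is not given. The counts of members therefore have no background beside them. The cause of these changes was not tested.

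The rest were chosen after seeing the data. Averaging control array 1 with 4 and 1st exposure array 2 with 4 left 1 call at the 1st exposure. The exposed arrays fall on 2 sides of the first residual component. Without 1st exposure arrays 2, 4 and 5 and 2nd exposure arrays 4 and 5, 1 member differed over the treatments, 0 were called at the 1st exposure and 1 at the 2nd, RpL24-like having 0.44 (adjusted p = 0.149) and 0.29 (adjusted p = 0.066). Without the other 5 exposed arrays, 1 was called at the 1st exposure and 1 between the exposures (RpS28-like, -0.60), where the family median was 0.054. RpS28-like was then also called at the 2nd exposure (-0.68, adjusted p = 0.00706). Of the 2nd exposure this fit kept only arrays 4 and 5, the pair already seen far under the other arrays for RpS28-like. Its calls in this fit follow from that choice and add no evidence. Both fits hold fewer arrays.

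No call was turned in direction. The methods drew the 3 pools of a replicate from the same starting flies, but nothing says that equal array numbers mark them. The residual correlation was -0.0731 to 0.0982 within a number and -0.163 to 0.138 between numbers. Of 15 arrays, 3 lay nearest to their own number. No pairing by number was seen, but a weak one would escape this check. With the replicate number as a block, the calls stayed at 2 for each exposure and 0 between them.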
